A study of Homo sapiens with 4 samples.

Results

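NKG2D ligands are the stress-induced surface proteins by which a tumour cell is recognised by natural killer cells, and their 8 genes are described here in a human lung cancer line treated with ACBI1. The genes were chosen by name as a family, with earlier results of these data known. They are MICA, MICB, ULBP1, ULBP2, ULBP3, RAET1E (ULBP4), RAET1G (ULBP5) and RAET1L (ULBP6), 8 of the 61228 genes in the deposited count tables. The cells were H1792, an established human lung cancer line recorded as wild type (WT), and every library was made from cells treated for 96 h. One group received the solvent DMSO (n = 2 libraries) and the other received ACBI1 (n = 2 libraries), at a concentration that the labels write as 1 mM, an unusually high unit for such a compound that was taken as written. ACBI1 is a PROTAC, a bifunctional molecule that recruits the VHL ubiquitin ligase to SMARCA2, SMARCA4 and PBRM1, subunits of the BAF and PBAF chromatin remodelling complexes, so that these proteins are degraded. A single cell line was used. The labels number the libraries 1 and 2 in each group without saying whether they came from separate cultures, so the p-values below measure only the spread between these libraries, which may be technical.

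NKG2D, encoded by KLRK1, is an activating receptor of natural killer cells and of many cytotoxic T cells, and it signals through the adaptor DAP10, encoded by HCST. Its ligands are distant relatives of MHC class I molecules. MICA and MICB carry a membrane-spanning segment and an α3 domain and are encoded in the MHC region, whereas the ULBP and RAET1 genes lie in a separate cluster on the other arm of the same chromosome and encode proteins without an α3 domain, several of them held to the membrane by a lipid anchor. Healthy cells carry little ligand, and DNA damage, heat shock, unbalanced proliferation and protein stress are known to raise it at the level of transcription, mRNA and protein. Proteases can also cut ligands off the cell surface, so transcript levels do not by themselves give the amount of ligand on the cell.

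The 4 libraries held between 64281850 and 86010100 reads assigned to genes, and 19159 genes had enough counts to be tested. Levels are given as CPM, counts divided by the library's total of assigned reads after TMM scaling, and changes as log2 of ACBI1 over DMSO with the standard error (SE). A gene was called changed where the p-value of edgeR's quasi-likelihood test, adjusted over all tested genes by the Benjamini-Hochberg method, was under 0.05. The transcripts of the degrader's targets did not pass this test (SMARCA4 0.70, adjusted p = 0.0583), and since degradation acts on protein they do not check the labels. Of 5 epithelial markers, KRT8 stood at 174 ± 25.8 CPM in DMSO and 65.04 ± 5.78 in ACBI1 (SD, n = 2 each) KRT18 at 147 ± 10.6 and 66.9 ± 11.6, and KRT19 at 4.22 ± 1.11 and 0.732 ± 0.323. All 3 keratins were called lower (log2 changes -1.42, -1.14 and -2.51; adjusted p = 0.00753, 0.0136 and 0.0171). EPCAM had a change in the other direction that did not pass the test (1.32, adjusted p = 0.179), and CDH1 (E-cadherin) was nearly absent, with 4 to 16 counts per library.

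All 8 genes lie on chromosome 6 and are annotated as protein-coding in GENCODE 29 (GRCh38). MICA occupies chr6:31399784-31415315 and MICB chr6:31494881-31511124, both on the plus strand. In the other cluster ULBP2 occupies chr6:149942000-149949235 and ULBP1 chr6:149964007-149973710, both on the plus strand. RAET1E (chr6:149883375-149898102), RAET1G (chr6:149916878-149923121), RAET1L (chr6:150018334-150025532) and ULBP3 (chr6:150063150-150069095) are on the minus strand. The 250 bases upstream of the RefSeq start are shown for ULBP1, the ligand gene that rose, for its neighbours ULBP2 and RAET1G, which fell, and for ULBP3, which did not pass the test, so that the start regions of genes that moved differently within one cluster can be read side by side. All 8 genes matched the RefSeq table (GRCh38.p14). Each sequence is written from 5′ to 3′ on the gene's own strand, and capitals mark the motifs found among those searched. The windows are chr6:149963693-149963942 (plus strand, ULBP1), chr6:149941764-149942013 (plus strand, ULBP2), chr6:149923122-149923371 (minus strand, RAET1G) and chr6:150069122-150069371 (minus strand, ULBP3).
ULBP1: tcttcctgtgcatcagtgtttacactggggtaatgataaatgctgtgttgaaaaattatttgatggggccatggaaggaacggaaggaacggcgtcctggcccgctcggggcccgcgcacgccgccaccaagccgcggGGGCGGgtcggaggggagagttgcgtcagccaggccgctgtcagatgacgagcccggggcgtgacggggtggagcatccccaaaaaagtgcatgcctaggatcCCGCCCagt
ULBP2: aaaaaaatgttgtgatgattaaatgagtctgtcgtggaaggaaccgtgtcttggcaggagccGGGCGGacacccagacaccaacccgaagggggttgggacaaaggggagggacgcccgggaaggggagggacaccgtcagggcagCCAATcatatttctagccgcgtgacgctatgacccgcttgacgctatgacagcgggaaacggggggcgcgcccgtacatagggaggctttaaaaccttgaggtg
RAET1G: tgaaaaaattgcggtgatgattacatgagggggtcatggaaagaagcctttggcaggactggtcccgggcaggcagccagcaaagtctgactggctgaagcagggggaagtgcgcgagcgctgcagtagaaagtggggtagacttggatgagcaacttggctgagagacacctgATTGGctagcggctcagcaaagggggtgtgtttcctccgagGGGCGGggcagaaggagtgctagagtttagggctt
ULBP3: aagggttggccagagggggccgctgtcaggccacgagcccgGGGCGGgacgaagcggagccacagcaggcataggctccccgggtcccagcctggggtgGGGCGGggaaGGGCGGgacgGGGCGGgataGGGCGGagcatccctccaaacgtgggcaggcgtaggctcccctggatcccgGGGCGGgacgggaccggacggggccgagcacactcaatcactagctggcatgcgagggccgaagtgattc

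The 8 motifs were searched by their letters on both strands, and a match describes letters, not a bound site. The GC box (GGGCGG), the letters read by SP1, was present in 42.6% of the 35116 upstream windows in the RefSeq table. In the ULBP1 window it began at positions -112 and -9 before the gene start, and no other motif was found there. The ULBP2 window held a GC box at -188 and a CCAAT box (CCAAT, in 32.0% of all windows) at -104, and the RAET1G window held the same pair in the other order, CCAAT at -76 and the GC box at -35. The ULBP3 window, with a GC content of 72% against 61.6% for ULBP1, 58.0% for ULBP2 and 56.4% for RAET1G, held 6 GC boxes between -209 and -70. MICA and MICB each held a GC box, a CCAAT box and a heat shock element (GAANNTTC, in 5.78% of all windows). Their 2 windows were identical at 84.0% of the 250 bases, the closest of the 28 pairs. The windows of MICA and MICB, chr6:31403345-31403594 and chr6:31497895-31498144, lie inside the gene spans given above, not ahead of them. They also lie inside the RefSeq gene spans, which start at 31400711 (MICA) and 31494918 (MICB). ULBP2 and RAET1G shared 59.2% and ULBP1 and ULBP2 52.8%, with a median of 49.8% over the 28 pairs. RAET1L and 1 of the 3 windows of RAET1E held an AP-1 motif (TGANTCA, in 6.57% of all windows), and the remaining RAET1E windows held CCAAT only. The RAET1E window with the AP-1 motif, chr6:149896131-149896380, lies inside the RAET1E gene span, as does the window chr6:149890945-149891194. The letters TGACGTCA (cAMP response element, 1.65% of all windows), TTTGGCGC or TTTCGCGC (E2F, 0.968%), TGATGCAA (ATF4 with C/EBP, 0.772%) and TATAAA (10.7%) were not in any window of the 8 genes.

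ULBP1 rose and ULBP2 fell in ACBI1-treated cells, although the genes are neighbours on the same strand. ULBP1 encodes a lipid-anchored ligand, and its level in replicates 1 and 2 was 9.94 and 8.77 CPM with DMSO against 22.1 and 18.9 CPM with ACBI1. Both ACBI1 libraries lay above both DMSO libraries, and the group means, 9.35 ± 0.823 and 20.5 ± 2.24 (SD, n = 2 each), differed 2.19-fold. The log2 change was 1.13 (SE 0.21, 95% interval 0.63 to 1.63, adjusted p = 0.0183), and 93.3% of tested genes had a lower change. Without ACBI1 replicate 1 the change was 1.02 and was no longer called (adjusted p = 0.101). In these bulk libraries more cells carrying a transcript and more transcript per cell cannot be told apart. The same holds for fewer cells and less transcript per cell where a level fell.

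ULBP2 encodes another lipid-anchored ligand, and its level was 7.95 and 9.45 CPM with DMSO against 1.47 and 1.72 CPM with ACBI1. The groups did not overlap, and the mean fell from 8.70 ± 1.07 to 1.599 ± 0.176 CPM, a 5.44-fold difference. The log2 change was -2.44 (SE 0.29, 95% interval -3.15 to -1.74, adjusted p = 0.00607), lower than in all but 4.27% of tested genes. ULBP2 was also called with any of the 4 libraries left out, at log2 changes from -2.57 to -2.32. Part of its sequence is not its own: 32.2% of its annotated 50-base stretches also occur in RAET1L or RAET1G, and how the counting treated such reads is not given in the sources used here. RAET1L had 1, 1, 0 and 0 counts, and RAET1G at most 71.

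The balance between the pair changed in both ACBI1 libraries. In raw counts, DMSO replicate 1 held 1.25 ULBP1 reads for each ULBP2 read (exact 95% interval 1.13 to 1.39, which covers counting error only) and DMSO replicate 2 held 0.928 (0.831 to 1.04). The ratio was 14.95 (12.5 to 18.0) in ACBI1 replicate 1 and 10.96 (9.03 to 13.4) in ACBI1 replicate 2. With 2 libraries against 2, an exact two-sided permutation test of this ratio cannot give a p below 0.333, so the difference is given as values without a test. The counting intervals did not overlap between the groups, but those of the 2 DMSO libraries did not overlap either. They do not measure the spread between libraries.

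**Figure D1:**
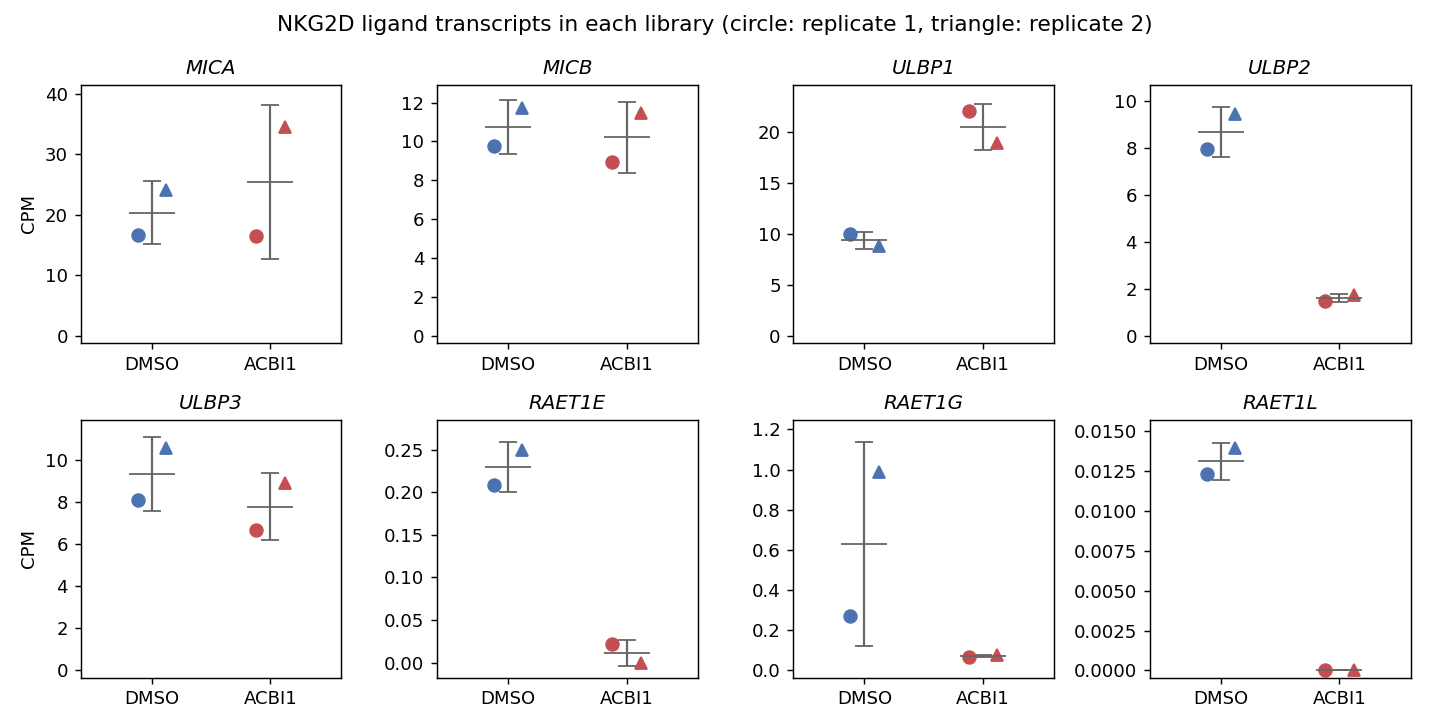
Level of each ligand gene in CPM (vertical axis, a separate linear scale for each gene) in the DMSO and ACBI1 libraries. Circles are replicate 1, triangles replicate 2, and the bars the mean ± SD of 2 libraries; the ACBI1 points of ULBP1 lie above and those of ULBP2 below both DMSO points, while the groups of MICA, MICB and ULBP3 overlap.

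The remaining abundant ligands, MICA, MICB and ULBP3, did not pass the test, and their groups overlapped. MICA, the ligand with the highest CPM, stood at 16.7 and 24.0 CPM in DMSO and at 16.5 and 34.5 CPM in ACBI1. One ACBI1 library was thus as low as the lowest DMSO library and the other was the highest of the 4. Its log2 change was 0.32 (SE 0.37, 95% interval -0.58 to 1.23, adjusted p = 0.592), and without ACBI1 replicate 2 it turned to -0.31. MICB, the close relative of MICA, stood at 9.78 and 11.7 CPM in DMSO and 8.91 and 11.5 CPM in ACBI1. Its change was -0.07 (SE 0.24, 95% interval -0.67 to 0.52, adjusted p = 0.861), and its sign flipped to 0.0089 when library sizes were not TMM-scaled. ULBP3, also a lipid-anchored ligand, stood at 8.09 and 10.6 CPM in DMSO and 6.65 and 8.89 CPM in ACBI1, a change of -0.27 (SE 0.27, 95% interval -0.93 to 0.40, adjusted p = 0.546). The intervals leave room for changes in either direction of up to 1.23 for MICA, -0.67 for MICB and -0.93 for ULBP3, so equality of the groups is not shown.

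RAET1E, RAET1G and RAET1L were at trace levels. RAET1E encodes ULBP4, which spans the membrane, and its counts were 17 and 18 with DMSO against 2 and 0 with ACBI1. The summed counts scaled by library size were 17.7 times higher in DMSO, with an exact 95% counting interval from 4.55 to 152. In the fit across all genes its log2 change was -4.01 (SE 0.88, adjusted p = 0.0305), and the call was lost without DMSO replicate 2 (adjusted p = 0.0609), ACBI1 replicate 1 (0.0769) or ACBI1 replicate 2 (0.124). The size also depended on single libraries: the fitted change was -7.07 when ACBI1 replicate 1, which held both counts, was left out, and -3.28 when ACBI1 replicate 2 was. RAET1G, which encodes ULBP5, had 22 and 71 counts in DMSO and 6 and 5 in ACBI1. Its summed counts gave a ratio of 8.55 (exact 95% counting interval 4.56 to 17.7). The counting intervals of RAET1E and RAET1G leave out the spread between libraries. RAET1G stood at 0.270 CPM in DMSO replicate 1 and 0.987 CPM in DMSO replicate 2. Its log2 change was -3.11 (SE 0.78, adjusted p = 0.0439), and the call rested on single libraries: it was lost without DMSO replicate 2 (-1.90, adjusted p = 0.197), ACBI1 replicate 1 (0.151) or ACBI1 replicate 2 (0.106). RAET1L, which encodes ULBP6, had 1 count in each DMSO library and none in ACBI1, where a count of 0 allows up to 0.0335 and 0.0458 CPM, so no difference was detectable at this depth. Reads of these genes are hard to assign. A read-through transcript or RAET1E-AS1 overlaps 35.8% of RAET1E's exonic bases, and RAET1E-AS1 overlaps 9.29% of RAET1G's. Whether the counting used strand is not given in the sources used here. Of its annotated 50-base stretches, RAET1G shares 18.3% with other genes (10.2% with ULBP2), and RAET1L shares 31.5% (29.5% with ULBP2). The part of shared reads in the counts of RAET1G and RAET1L was not tested. RAET1E-AS1 itself had 39 and 65 counts in DMSO and 68 and 99 in ACBI1, and did not pass the test (0.71, adjusted p = 0.386).

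In all, 7 of the 8 ligand genes could be tested. ULBP1 was called higher and ULBP2, RAET1E and RAET1G lower, beside 17.4% of all tested genes called in either direction, 6.75% higher and 10.6% lower. RAET1E and RAET1G passed the filter on low counts only through the DMSO libraries, where they were high, so the count of 3 lower ligand genes is a description. The groups did not overlap for 4 of the 7, and for 63.2% of all tested genes. The middle of the 7 changes was that of ULBP3, -0.27, beside a median of 0.01 over all tested genes.

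**Figure D2:**
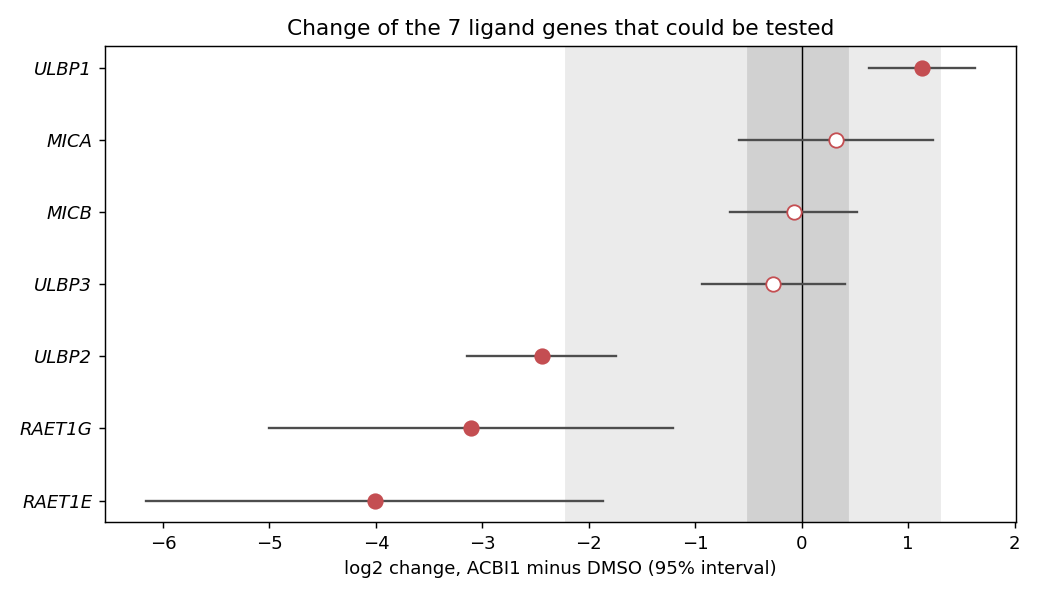
Log2 change of the 7 tested ligand genes, ACBI1 minus DMSO (horizontal axis), with 95% intervals; filled points were called at an adjusted p under 0.05, and shading marks where the changes of all 19159 tested genes lie, from -2.21 to 1.298 for the middle 90% of them and from -0.51 to 0.44 for the inner quartiles. ULBP2, RAET1E and RAET1G lie to the left of the middle 90%, and ULBP1 lies within it on the right.

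Levels of different genes were compared as CPM per kb of annotated exon. In DMSO the order of the group means was ULBP3 (9.45), MICA (8.54), ULBP2 (6.45), MICB (3.84), ULBP1 (2.98), RAET1G (0.423), RAET1E (0.0764) and RAET1L (0.00973 CPM per kb). In ACBI1 it was MICA (10.7), ULBP3 (7.86), ULBP1 (6.51), MICB (3.65), ULBP2 (1.19), RAET1G (0.0482), RAET1E (0.00372) and RAET1L (0 CPM per kb). ULBP1 and ULBP2 thus exchanged places around MICB. Among neighbours in these orders, the libraries of ULBP3 and MICA overlapped in both groups, as did those of MICA and ULBP2 in DMSO (6.995 to 10.08 against 5.89 to 7.007) and those of ULBP3 and ULBP1 in ACBI1 (6.727 to 9.0 against 6.01 to 7.018). Within single libraries, ULBP3 was above MICA in both DMSO libraries and below it in both ACBI1 libraries. MICA was above ULBP2 in both DMSO libraries. Of these overlapping pairs, only ULBP3 and ULBP1 in ACBI1 changed order between replicates. ULBP2, MICB and ULBP1 did not overlap in DMSO, nor did ULBP1, MICB and ULBP2 in ACBI1. The place of ULBP3 depends on the annotation, since RefSeq extends the gene to position 150061053 and GENCODE 29 only to 150063150, and the annotation used in counting is not given in the sources used here.

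Summed over the 8 genes, ligand transcript was 27.99 and 35.53 CPM per kb in DMSO and 24.99 and 34.91 in ACBI1, so the groups overlapped in the sum while its makeup differed. ULBP2 made up 21.0% and 19.7% of the sum in DMSO and 4.37% and 3.66% in ACBI1. ULBP1 went the other way, from 11.3% and 7.86% to 28.1% and 17.2%. MICB was 11.8% to 12.7% of the sum in every library, and ULBP3 25.8% to 30.1%. MICA was 25% to 28.4% in 3 libraries and 41.4% in ACBI1 replicate 2. The sums and all shares rest on the same exon lengths, so they depend on the annotation as the place of ULBP3 does. A longer ULBP3 would lower its share and the sums, and raise the shares of the other genes. The sums and shares were not tested with other exon lengths.

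**Figure D3:**
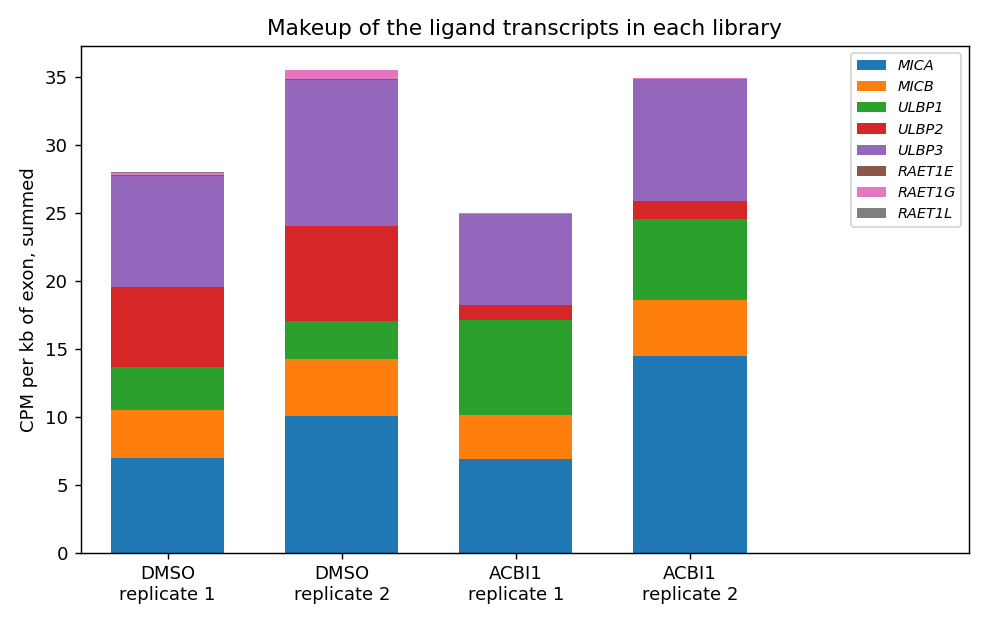
Ligand transcript in each library, stacked by gene, in CPM per kb of exon (vertical axis, from 0). The heights depend on the annotated exon lengths, that of ULBP3 among them. The ULBP2 segment is small in both ACBI1 libraries and the ULBP1 segment large, while the total height overlaps between the groups.

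The 6 ULBP and RAET1 ligand genes span 185.9 kb in RefSeq, and the direction of change was not the same along them. In genome order the log2 changes were -4.01 (RAET1E), -3.11 (RAET1G), -2.44 (ULBP2), 1.13 (ULBP1), -2.46 (the pseudogene RAET1K), not tested (RAET1L) and -0.27 (ULBP3). ULBP2 ends 14.7 kb before ULBP1 starts, and RAET1K starts 24.3 kb beyond ULBP1. RAET1K had 39 and 43 counts in DMSO and 9 and 6 in ACBI1 (SE 0.48, adjusted p = 0.0222), and its call was lost without DMSO replicate 2 (adjusted p = 0.0629), ACBI1 replicate 1 (0.108) or ACBI1 replicate 2 (0.0942). Like RAET1E and RAET1G, it passed the filter on low counts only through the DMSO libraries, so its direction is a description. ULBP1 shares 6.85% of its 50-base stretches with other genes, all of them with RAET1K, which changed in the opposite direction.

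Of the 11 other protein-coding genes within 500 kb of this cluster, 8 were matched and tested, of which 1 rose and 1 fell, beside 6.75% and 10.6% of all tested genes, with a median log2 change of -0.01. KATNA1, a subunit of the microtubule-severing enzyme katanin, rose (1.07, adjusted p = 0.0301), and ZC3H12D, a member of a family of RNA-degrading proteins, fell (-2.27, adjusted p = 0.0294). The KATNA1 call was lost without DMSO replicate 2 (adjusted p = 0.0567), ACBI1 replicate 1 (0.140) or ACBI1 replicate 2 (0.0501), and the ZC3H12D call without ACBI1 replicate 2 (0.0582). LRP11, which borders RAET1E, had a change as large as that of ULBP1 but missed the threshold (1.16, SE 0.38, adjusted p = 0.0855). Without DMSO replicate 2 LRP11 was called (1.75, adjusted p = 0.00257), as it was by DESeq2 (0.0161), and 56.2% of its exonic bases are overlapped by other transcripts. PCMT1, the next gene outwards, had a change of -0.03.

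**Figure D4:**
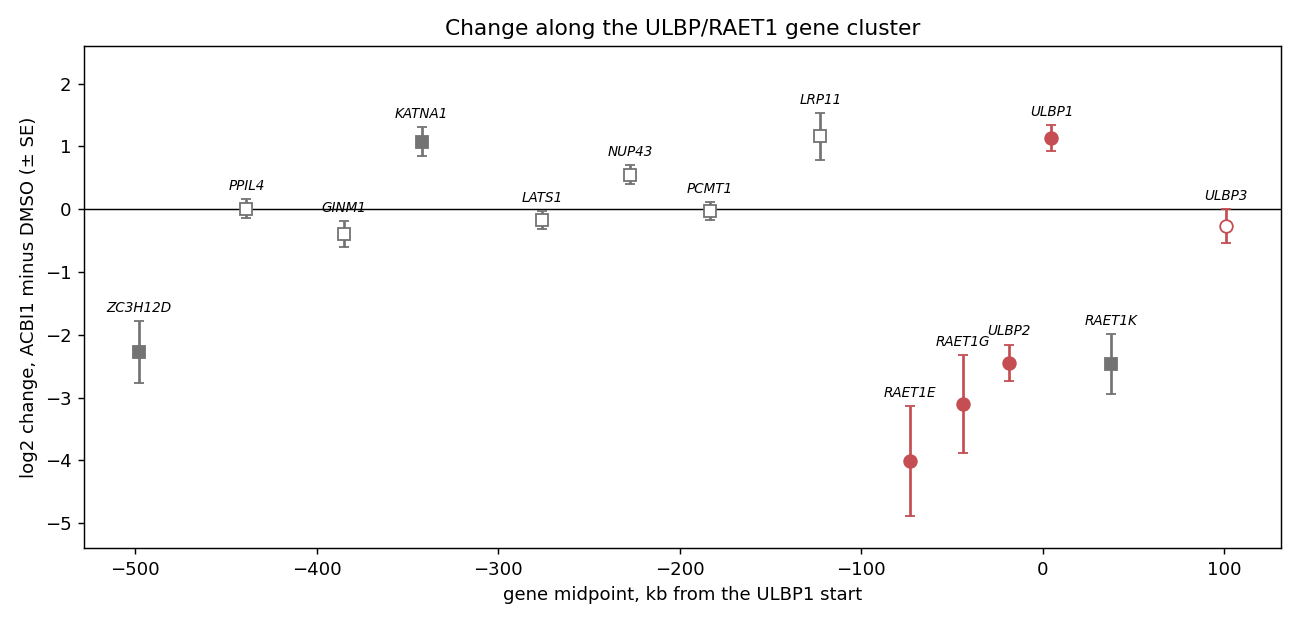
Log2 change with its SE (vertical axis) of the tested genes around the ULBP and RAET1 cluster against the distance of their midpoint from the ULBP1 start in kb (horizontal axis). Red circles are ligand genes, grey squares other genes, and filled symbols were called; ULBP1, at 1.13, is flanked by ULBP2 at -2.44 and RAET1K at -2.46.

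MICA and MICB lie 79.6 kb apart in the MHC region and did not pass the test, whereas several of their neighbours did. Within 500 kb, 40 of 61 other protein-coding genes were matched and tested, of which 3 rose and 10 fell, beside 6.75% of all tested genes called higher and 10.6% lower, with a median log2 change of -0.48. TNF and LTB, cytokine genes that lie beyond MICB, fell, at log2 changes of -3.95 and -5.83 (adjusted p = 0.00361 and 0.00193). HLA-B, the class I gene before MICA, fell by 2.80 (adjusted p = 0.0283), with a log2 change of -1.72 without DMSO replicate 1. CFB, which encodes complement factor B, fell from a mean of 1.93 CPM to 0 counts in both ACBI1 libraries (adjusted p = 0.00392). Other transcripts overlap 45.5% of CFB's exonic bases. LTA, named outside the rule, is also among the 10, with means of 0.383 CPM in DMSO and 0.0655 CPM in ACBI1 (adjusted p = 0.0457). CFB and LTA passed the filter on low counts only through DMSO, where they were high, so the count of 10 is a description. The 3 that rose, named here outside the rule for named genes and after their values were seen, were TCF19 (1.42), VARS1 (0.87) and LSM2 (0.63). VARS1 and LSM2 each lost the call when single libraries were left out, VARS1 without any but DMSO replicate 1 and LSM2 without any of the 4, with adjusted p-values up to 0.132 and 0.180, and HLA-B lost it without ACBI1 replicate 2 (adjusted p = 0.0590).

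Genes with the pattern most like a ligand's were found by the Euclidean distance of mean-centred log2 CPM over the 4 libraries, among all tested genes other than the ligands. Nearest to ULBP1 were FGF12, a member of the fibroblast growth factor homologous factors (distance 0.0497), GSR, glutathione reductase (0.0816), and NOP2, a nucleolar RNA methyltransferase (0.0981). GSR stood at 119 and 111 CPM in DMSO and at 270 and 244 CPM in ACBI1, a log2 change of 1.16 (adjusted p = 0.00940). Nearest to ULBP2 were the long non-coding RNA GSEC (0.0719), ENSG00000239572 (0.0961) and COL4A2, a chain of basement membrane collagen (0.109), which was 12.5 and 16.2 CPM in DMSO and 2.36 and 2.71 CPM in ACBI1. Nearest to MICA were PTPRS, a receptor tyrosine phosphatase (0.0627), FGF14 (0.0642) and ENSG00000225407 (0.0802), none of which was called. PTPRS, like MICA, was highest in ACBI1 replicate 2, at 497 CPM against 242 to 353 in the other libraries. Among the nearest to RAET1E were AADAC (0.210) and PELI2 (0.211), and nearest to RAET1G were MEGF10 (0.176), GALNT9 (0.233) and SLC12A8 (0.262), each of which was highest in DMSO replicate 2, as RAET1G was. Overlapping transcripts cover 54.4% of the exonic bases of NOP2 and 33.2% of those of FGF14, so their counts are uncertain. These distances were chosen to be small and are given as a description over 4 libraries.

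Transcripts of the receptor and its adaptor were at trace levels. KLRK1, which encodes NKG2D itself, had 2, 0, 2 and 8 counts in DMSO 1, DMSO 2, ACBI1 1 and ACBI1 2, and HCST had 8, 8, 6 and 10. CD3D and CD3E, which define T cells, had no count in any library. CD8A, a co-receptor chain of cytotoxic T cells, had 137, 42, 48 and 7 counts, and NCAM1, the CD56 of natural killer cells that other tissues also express, had 10, 70, 1 and 12; both are named outside the rule and neither passed the test. These and KLRD1 were the 3 of 12 receptor, natural killer and T cell genes that could be tested. Of the 3, 1 fell and none rose, beside 10.6% of all tested genes called lower and 6.75% higher. The gene that fell was KLRD1, the CD94 chain of other natural killer receptors, with 22 and 25 counts in DMSO and 6 and 3 in ACBI1 (-2.39, adjusted p = 0.0355). Its call was lost with any 1 library left out, at adjusted p-values from 0.0583 (without DMSO replicate 1) to 0.177 (without ACBI1 replicate 2), and by DESeq2 (0.0829). KLRD1 passed the filter on low counts only through the DMSO libraries. The summed level of the 12 genes was 2.35 and 2.09 CPM in DMSO and 0.793 and 0.702 CPM in ACBI1, of which CD8A alone was 1.68 CPM in DMSO replicate 1.

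Among 8 genes for shedding or retention of ligands, 7 could be tested, of which 2 fell and none rose, beside 10.6% of all tested genes called lower, with a median log2 change of -1.004 beside 0.01 over all tested genes. MMP14, a membrane-bound metalloprotease reported to cut MICA, stood at 1312 ± 606 CPM in DMSO and 212 ± 18.7 in ACBI1 (SD, n = 2 each; -2.63, adjusted p = 0.00788). MMP2, a secreted gelatinase that MMP14 activates, stood at 1075 ± 247 and 206 ± 57.0 CPM (-2.38, adjusted p = 0.00607). ADAM10 and ADAM17, the proteases best known for releasing MICA, MICB and ULBP2, are named outside the rule: their changes were -0.63 and -0.67 with adjusted p-values of 0.0708 and 0.0568. DESeq2 called both (0.0353 and 0.0177), and leaving out DMSO replicate 1 made ADAM10 pass as well (-0.77, adjusted p = 0.0345).

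Of 19 reported regulators of ligand transcription or mRNA, all could be tested, 5 rose and none fell, beside 6.75% of all tested genes called higher and 10.6% lower, with a median of 0.31. E2F2 and E2F1 are cell-cycle transcription factors, and E2F factors are known to act on the mouse counterpart of these genes. E2F2 rose from 4.67 to 40.2 CPM (3.10, adjusted p = 0.00141) and E2F1 from 43.3 to 164 CPM (1.93, adjusted p = 0.00485). The DNA damage checkpoint kinases CHEK2 and CHEK1 rose by 1.32 and 0.94 (adjusted p = 0.0133 and 0.0128). CHEK2 lost its call without ACBI1 replicate 2 (adjusted p = 0.0513) and CHEK1 without ACBI1 replicate 1 (0.0617). ATR, the kinase upstream of CHEK1, is the fifth (0.59, adjusted p = 0.0480), named outside the rule, and its call was lost with any 1 library left out (adjusted p from 0.0708, without DMSO replicate 1, to 0.241, without ACBI1 replicate 2) and by limma-voom (0.0526).

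Of 10 ligands of other activating receptors 9 could be tested, of which 4 fell, 1 rose and 4 did not pass the test, beside 10.6% of all tested genes called lower and 6.75% higher, and their median was -1.20. ICAM1, the adhesion ligand of LFA-1, fell from 186 ± 42.1 to 10.6 ± 0.408 CPM (-4.13, adjusted p = 0.00141). CLEC2B, the ligand of NKp80, had a log2 change of -1.96 (adjusted p = 0.0105), NECTIN2, a ligand of DNAM-1, of -1.64 (0.0116) and CD58, the ligand of CD2, of -1.46 (0.00991), all called lower. NCR3LG1 (B7-H6), the ligand of NKp30, is the gene that rose and is named outside the rule: it went from 43.2 ± 21.9 to 118 ± 6.55 CPM (1.45, adjusted p = 0.0382), and its call was lost without ACBI1 replicate 1 (adjusted p = 0.0854) or ACBI1 replicate 2 (0.0588). Its change was 2.09 without DMSO replicate 1 and 1.0004 without DMSO replicate 2. Overlapping transcripts cover 23.6% of the exonic bases of ICAM1 and 18.2% of those of CLEC2B.

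Among ligands of inhibitory receptors, genes were called in both directions. The class I genes HLA-B (-2.80, adjusted p = 0.0283), HLA-C (-1.34, adjusted p = 0.0104) and HLA-E (-1.22, adjusted p = 0.0102) fell. HLA-B lost its call without ACBI1 replicate 2 (adjusted p = 0.0590) and HLA-C without ACBI1 replicate 1 (0.0550), and reads shared among class I genes, with 18.9% of HLA-B's exonic bases overlapped by other transcripts, make single members uncertain. PCNA, the DNA replication clamp that has also been reported as a ligand of NKp44, rose by 1.23 (adjusted p = 0.00797). On the target side of killing, 3 of 7 genes fell and none rose, beside 10.6% of all tested genes called lower, and the median was -0.61. SERPINB9, the inhibitor of granzyme B, fell from 67.1 to 16.2 CPM (-2.05, adjusted p = 0.00231). BID and CFLAR, which promote and restrain death receptor signalling, fell, at log2 changes of -0.74 and -0.61 (adjusted p = 0.0407 for each). Neither call held without TMM scaling (0.0525 and 0.0603), and both were lost without DMSO replicate 2, ACBI1 replicate 1 or ACBI1 replicate 2, with adjusted p-values of up to 0.224 for BID and 0.194 for CFLAR.

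**Figure D5:**
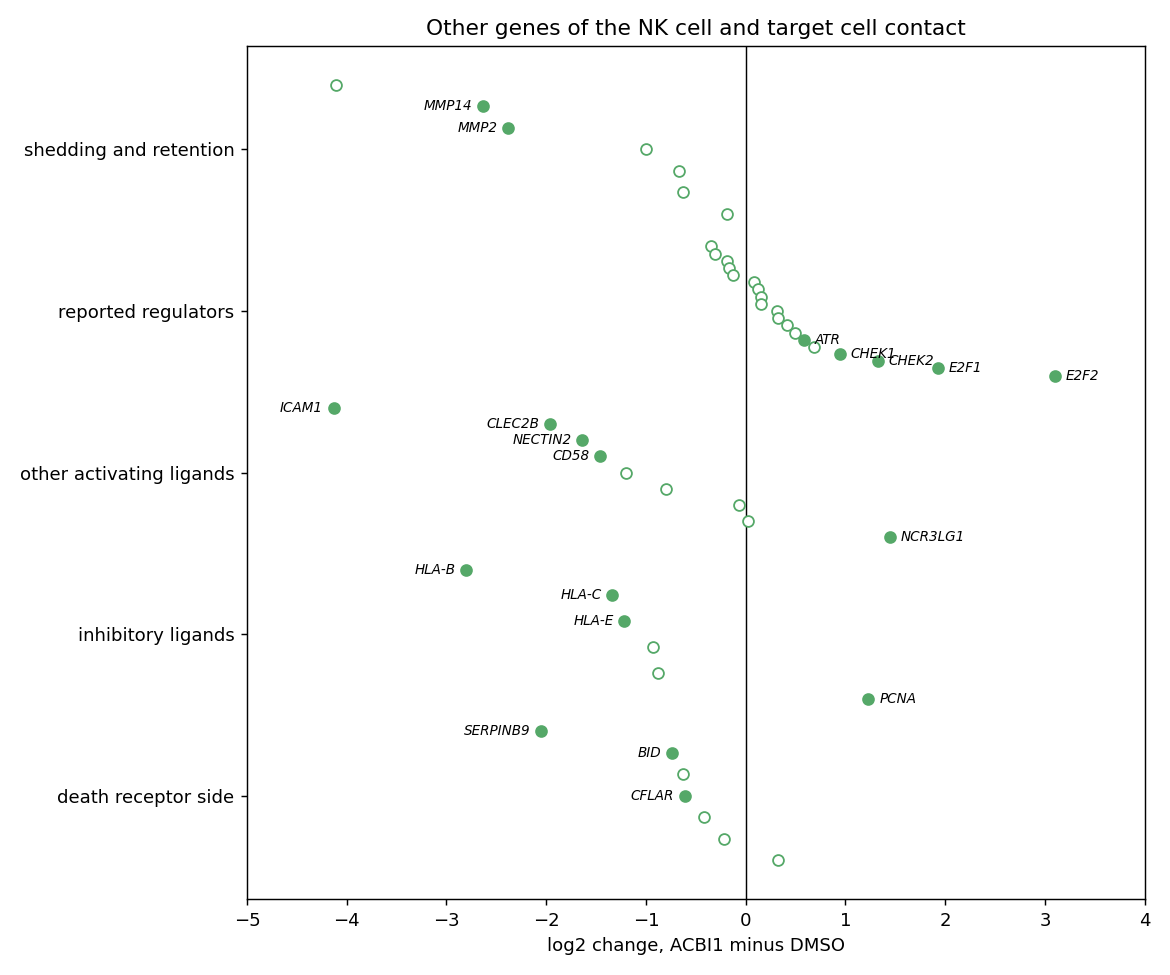
Log2 change, ACBI1 minus DMSO (horizontal axis), of tested genes reported here from 5 lists around the contact of natural killer and target cells, grouped on the vertical axis. Filled points were called and are named; the called genes of the shedding and death receptor lists lie below 0, those of the regulators above 0, and the 2 ligand lists hold called genes on both sides.

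Several markers of other cell types were lower in ACBI1. Of 11 endothelial, fibroblast, myeloid and B cell markers 6 could be tested, 4 fell and none rose, beside 10.6% of all tested genes called lower. PECAM1, VWF and DCN passed the filter on low counts only through the DMSO libraries, where they were high, so this count is a description. The summed level of the 11 was 34.0 and 108 CPM in DMSO and 8.94 and 12.1 CPM in ACBI1. Of these sums, PDGFRB was 12.4 and 36.3 CPM in DMSO and 8.15 and 10.0 CPM in ACBI1. PDGFRB is named outside the rule and was not called (adjusted p = 0.0967). PECAM1 was 12.2 and 48.1 CPM of the DMSO sums. PECAM1, an endothelial and leukocyte adhesion molecule, had 997 and 3461 counts in DMSO and 1 and 3 in ACBI1. VWF, von Willebrand factor, had 24 and 23 counts and then none in either ACBI1 library. The matrix proteoglycans DCN and LUM fell, at log2 changes of -6.24 and -3.19 (adjusted p = 0.00425 and 0.0319). LUM lost its call without ACBI1 replicate 1 (adjusted p = 0.0717), as did VWF (0.0513). The B cell marker MS4A1 and the macrophage marker CD163 had no counts in any library, and the endothelial cadherin CDH5 had 2 and 4 counts in DMSO and none in ACBI1. The part of these markers in the changes of ULBP1, ULBP2, RAET1E and RAET1G was not tested.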

How the data were processed

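RNA-seq was measured in 4 H1792 libraries, 2 treated with DMSO and 2 with ACBI1. The deposited values are raw counts of reads per gene, made by the authors with TopHat2 2.1.1 and HTSeq 0.11.0 on hg38, per the submitters' processing notes. The gene annotation, the strand setting and the handling of reads that fit several genes are not given in the sources used here. Lines that name no gene held 13.89% to 15.36% of the listed reads and were left out. Gene totals were 64281850 to 86010100 per library, so a count of 0 (limit 3 counts) allows 0.0335 to 0.0458 CPM.

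Counts were fitted across all genes with edgeR 4.0.16 (quasi-likelihood test, two-sided, TMM scaling, filterByExpr with a minimum count of 10; R 4.3.3), with treatment as the only term. The 19159 tested genes had a common biological coefficient of variation of 0.244, and 6490 had an unadjusted p under 0.05. SEs were derived from the F statistic. The script was tested on simulated data. The alternatives were other scalings and filters, a replicate block, DESeq2 1.42.0, limma-voom (limma 3.58.1), a threshold of 0.01 and leaving out each library. Replicates correlated at 0.983 (DMSO) and 0.986 (ACBI1) and differed by more than counting error, so each was kept as 1 sample. Exons come from GENCODE 29, gene positions and upstream windows from RefSeq.

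The named genes are all 8 ligands, KLRK1, HCST, up to 4 called genes of largest change from each list and locus, and the 3 nearest genes of MICA and of each called ligand. The genes and lists were chosen with earlier results of these data known. No list was given a test of its own. Some items that these rules name are not reported here.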

Additional observations from a re-analysis of the deposited data

How the results depend on the processing

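ULBP1 was called higher and ULBP2 lower in each of 8 fits on all 4 libraries without a block, with log2 changes from 1.12 to 1.22 and from -2.46 to -2.36. RAET1E was called in 7 of 7 such fits and RAET1G in 6 of 7, where limma-voom gave -2.73 (adjusted p = 0.0735). A mean of at least 5 CPM kept 5 ligands and left 1 called lower, since RAET1E and RAET1G were then not tested. At an adjusted p under 0.01, 0 ligands were called higher and 1 lower (ULBP2), and 783 genes in all against 3331. With 1 library left out, 0 to 1 ligands were called higher, 1 to 3 lower and 1379 to 4292 genes in all. Testing every gene with a count called 5518. With the replicate number as a block, the same 4 ligands were called and 7909 genes in all. Deviations of same-numbered libraries correlated at 0.442, but there are only 2 numbers, and no label says what same-numbered libraries share. What lies behind this correlation was not tested. Signs of uncalled genes flipped: MICB gave 0.0089 without TMM scaling and -0.28 to 0.11 with 1 library left out, MICA -0.31 to 0.77, PTPRS -0.34 to 0.72, FGF14 -0.37 to 0.71 and ENSG00000225407 -0.41 to 0.85. Of the called genes, 61.2% were lower; the share was 51.5% without TMM scaling, which moved the median of all genes to 0.09, and 53.1% with the block. The cause of these shifts was not tested. Depth limits RAET1L and 9 of the 12 receptor-side genes, KLRK1 and HCST among them, which had too few counts for a test.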
